A study of Homo sapiens with 12 samples.

Results

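Plasma cells are specialised for making antibody, and several transcripts of that programme can be followed in 3' mRNA sequencing of the human multiple myeloma line OPM2. The 8 genes described here were taken by symbol: the lambda light chain constant genes *IGLC1*, *IGLC2*, *IGLC3* and *IGLC7*, the neighbouring light chain-like gene *IGLL5*, the joining chain gene *JCHAIN*, the chaperone gene *MZB1* and the poly(A) polymerase gene *TENT5C* (older name *FAM46C*). They are 8 of the 63152 identifiers in the count table. All 8 were matched and passed the filter on low counts, which left 13180 genes to test.

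The series measured OPM2 cells, an established line of malignant plasma cells, cultured for 2 h with vehicle or 1 of 3 small molecules, and has 3 libraries per group. DMSO, the vehicle, was the control. JQ1, which binds the bromodomains of BET proteins (readers of acetylated histones), was given at 250 nM, and BKM120, an inhibitor of the lipid kinase PI3K, at 1 µM. 18DS, a single molecule that the series' title presents as having both activities, was given at 250 nM. The labels call the samples biological triplicates of a single line and do not say whether they were separate cultures, so the tests measure the spread between these samples, which may be partly technical. The JQ1 and 18DS doses match and the BKM120 dose differs from both.

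An antibody is built from 2 kinds of chain, heavy and light, each with a variable part and a constant part. A light chain is of the kappa or lambda type, and the lambda constant genes lie next to each other in the genome as near-identical copies. The joining chain links antibody units into IgM pentamers and IgA dimers, and MZB1 is an endoplasmic reticulum protein that helps antibody chains fold and leave the cell. TENT5C adds adenosines to the tails of mRNAs of secreted proteins, immunoglobulin mRNAs among them, and is recurrently mutated or deleted in myeloma. 3' sequencing counts reads near the poly(A) site and gives no tail length.

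The likeness of the lambda copies sets what these counts can tell apart, so the end of the coding part is shown first. The sequences are from GENCODE transcripts of the GRCh38 build, the last 150 coding bases including the stop codon, plus strand of chromosome 22, 5′ to 3′. Capitals mark bases that differ from *IGLC2*. *IGLC1* is from chr22:22895545-22895694, *IGLC2* from chr22:22901146-22901295, *IGLC3* from chr22:22906512-22906661 and *IGLC7* from chr22:22922764-22922913. The authors' build was another one, hg19, so these positions are the reference's and not the files'.
IGLC1: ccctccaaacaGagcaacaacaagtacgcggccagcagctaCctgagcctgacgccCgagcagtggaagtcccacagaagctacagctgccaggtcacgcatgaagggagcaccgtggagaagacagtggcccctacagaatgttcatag
IGLC2: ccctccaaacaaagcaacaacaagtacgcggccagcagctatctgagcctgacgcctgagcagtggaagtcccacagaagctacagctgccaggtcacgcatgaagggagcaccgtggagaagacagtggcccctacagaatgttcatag
IGLC3: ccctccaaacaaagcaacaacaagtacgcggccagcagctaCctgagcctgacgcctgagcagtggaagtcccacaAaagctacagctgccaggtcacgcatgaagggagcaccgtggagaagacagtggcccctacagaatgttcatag
IGLC7: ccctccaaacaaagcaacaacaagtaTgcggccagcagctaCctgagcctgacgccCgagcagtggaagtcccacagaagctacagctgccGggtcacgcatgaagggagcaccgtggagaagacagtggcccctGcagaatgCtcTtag
In this stretch *IGLC3* differed from *IGLC2* at 2 bases, *IGLC1* at 3 and *IGLC7* at 7. Over the 320 coding bases compared, *IGLC2* and *IGLC3* were 99.1% identical, with 3 substitutions (G38A, T212C and G247A, the *IGLC2* base first, counted from the exon's first base). *IGLC1* was 95.3% and *IGLC7* 95.9% identical to *IGLC2*. The reads were 75 bases long, so the transcripts were also compared in windows of 75 bases. The windows cover whole transcripts, including the part after the stop codon that is not shown above. Where along the transcripts the reads fell was not examined. Of the 386 such windows in *IGLC1*, 386 also occur in *IGLL5*, whose last part overlaps *IGLC1* in the annotation. In *IGLC2*, 165 of 388 windows (42.5%) also occur in *IGLC3*. *IGLC7* shared 12 of 367 windows (3.27%) with another gene. *TENT5C*, *JCHAIN* and *MZB1* shared 0 of 5677, 0 of 1364 and 0 of 751 windows with any other gene.

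The libraries held 5501895 to 7692013 counts, and the 8 genes took 1.24% to 1.60% of them. Levels are CPM, that is counts scaled to a common library total, on library sizes scaled by the TMM method, except that the marker sums below use the raw library totals. Changes are log2 ratios from edgeR's quasi-likelihood test, adjusted by Benjamini and Hochberg over the 13180 genes, and a gene was called at an adjusted p under 0.05. *MYC*, a gene known to depend on BET proteins, was at 29.3 ± 2.61 CPM (SD, n = 3) in DMSO, 2.54 ± 0.343 in JQ1, 51.3 ± 4.68 in BKM120 and 2.51 ± 1.12 in 18DS. *HEXIM1*, which BET inhibitors are known to raise, was at 31.5 ± 1.85, 99.4 ± 11.2, 30.7 ± 0.258 and 122 ± 19.9 CPM in the same order. All 8 plasma cell markers passed the filter, and their summed level was 2230 to 2337 CPM in the vehicle libraries, 2067 to 2105 CPM with BKM120, 1730 to 1785 CPM with JQ1 and 1527 to 1733 CPM with 18DS. Of the 9 markers of earlier B cells 1 passed, and their sum was 3.27 to 7.12 CPM over the 12 libraries, with *MS4A1* at 0. The markers of T and NK cells, myeloid cells and epithelial cells or fibroblasts summed to at most 3.20 CPM in any library. In bulk RNA, fewer cells of a kind and less RNA per cell cannot be told apart.

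*TENT5C* (ENSG00000183508) fell in the groups given the BET inhibitor or the dual molecule. It was at 109, 119 and 128 CPM in the DMSO libraries, 59.0, 57.3 and 75.1 CPM in JQ1, 98.5, 105 and 98.5 CPM in BKM120, and 61.5, 47.8 and 70.9 CPM in 18DS. The JQ1 and 18DS libraries overlap each other and lie below every DMSO and BKM120 library, and the BKM120 libraries lie just below the DMSO ones. The group means were 118 ± 9.48, 63.8 ± 9.83, 101 ± 3.65 and 60.0 ± 11.6 CPM (SD, n = 3), in the order DMSO, JQ1, BKM120, 18DS.

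Against DMSO, the log2 change of *TENT5C* in JQ1 was -0.88 (SE 0.11, 95% interval -1.12 to -0.65, edgeR adjusted p = 6.52e-06), which is 1.84-fold lower. In 18DS it was -0.98 (SE 0.11, interval -1.21 to -0.74, edgeR adjusted p = 6.81e-07), or 1.97-fold lower. In BKM120 it was -0.23 (interval -0.46 to -0.01) and was not called, with an unadjusted p of 0.0451 and an edgeR adjusted p of 0.202. The 3 comparisons share the DMSO libraries.

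Between the treated groups, *TENT5C* was lower in JQ1 than in BKM120 (log2 difference -0.65, SE 0.11, edgeR adjusted p = 0.000305) and lower in 18DS than in BKM120 (-0.74, SE 0.12, edgeR adjusted p = 5.57e-05). At the matched dose, 18DS and JQ1 were not shown to differ (-0.09, interval -0.33 to 0.15, edgeR adjusted p = 0.731). The change in 18DS departed by 0.14 from the changes in JQ1 and in BKM120 added together (interval -0.19 to 0.47, edgeR adjusted p = 0.904), a departure not shown to differ from 0. The calls in JQ1 and in 18DS against DMSO held under all 24 other settings tried, with changes of -1.02 to -0.81 in JQ1 and -1.11 to -0.84 in 18DS.

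**Figure D1:**
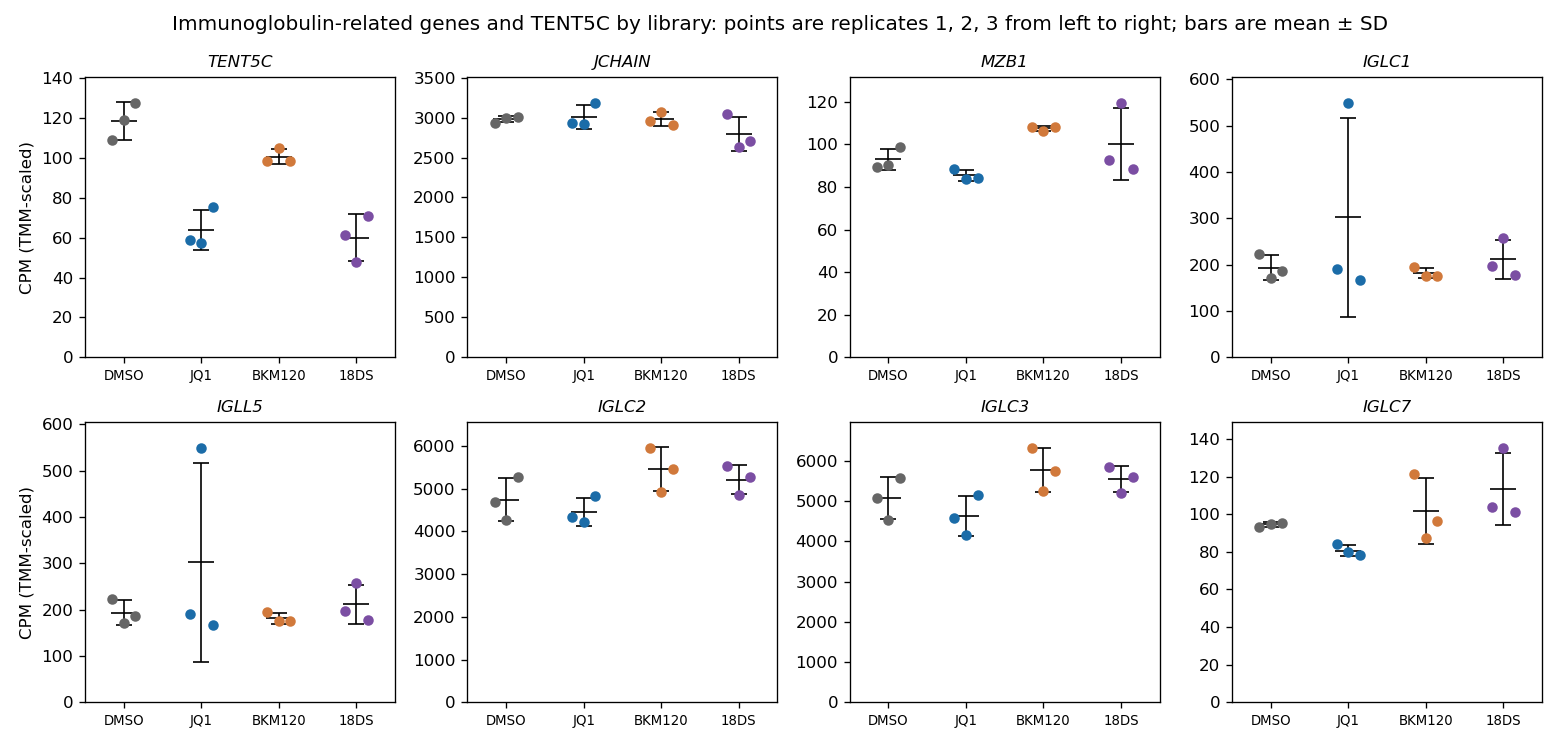
Level of each of the 8 genes in every library, in TMM-scaled CPM on axes that start at 0 and differ between panels. Points are replicates 1 to 3 from left to right in each group and bars are the mean ± SD. *TENT5C* sits between 47.8 and 75.1 CPM in the JQ1 and 18DS libraries and between 98.5 and 128 CPM in the others, while *IGLC1* and *IGLL5* each have 1 JQ1 library far above the rest.

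*JCHAIN* (ENSG00000132465), the joining chain gene, was not called in any of the 7 comparisons. Its libraries were at 2936, 2999 and 3004 CPM in DMSO, 2931, 2921 and 3186 CPM in JQ1, 2959.6, 3072 and 2901 CPM in BKM120, and 3043, 2636 and 2704 CPM in 18DS. The groups overlap, and 2 of the 3 18DS libraries are the lowest of the 12. Against DMSO the log2 change was 0.02 in JQ1 (95% interval -0.12 to 0.15), with an interval of -0.14 to 0.13 in BKM120, and -0.09 in 18DS (-0.23 to 0.04), with edgeR adjusted p-values of 0.934, 0.995 and 0.346. At these depths the intervals against DMSO reach from -0.23 to 0.15 on the log2 scale.

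*MZB1* (ENSG00000170476), the antibody chaperone gene, was slightly higher in BKM120 than in JQ1. It was at 89.4, 90.5 and 98.8 CPM in DMSO, 88.6, 83.9 and 84.0 CPM in JQ1, 108, 106 and 108 CPM in BKM120, and 92.5, 119.6 and 88.4 CPM in 18DS. Every JQ1 library is below and every BKM120 library above the DMSO libraries, and replicate 2 of 18DS is the highest of the 12. Neither change against DMSO was called. The log2 change was -0.12 in JQ1 (interval -0.31 to 0.07, edgeR adjusted p = 0.561) and 0.21 in BKM120 (interval 0.02 to 0.40, edgeR adjusted p = 0.156). The difference of JQ1 from BKM120 was called, at -0.33 (SE 0.09, interval -0.52 to -0.14, edgeR adjusted p = 0.0136). That call was lost without replicate 2 or 3 of JQ1 or replicate 1 of BKM120 (edgeR adjusted p = 0.0570, 0.0639 and 0.0521). In 18DS the log2 change against DMSO was 0.11 (interval -0.08 to 0.29, edgeR adjusted p = 0.455).

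Among the light chain rows, *IGLC2* (ENSG00000211677) and *IGLC3* (ENSG00000211679) held the most counts. Over the 12 libraries *IGLC3* had 399124 counts, *IGLC2* 376615, *IGLL5* (ENSG00000254709) 16499, *IGLC1* (ENSG00000211675) 16493 and *IGLC7* (ENSG00000211685) 7354. Given the windows shared between *IGLC2* and *IGLC3*, counting could split reads between their rows, and each level is uncertain to that extent. How reads that map to several places were counted is not given in the sources used here.

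*IGLC2* was at 4681, 4269 and 5269.6 CPM in DMSO, 4328, 4213 and 4832 CPM in JQ1, 5960.3, 4933 and 5470.1 CPM in BKM120, and 5534, 4845 and 5264 CPM in 18DS. *IGLC3* was at 5088, 4547 and 5590.2 CPM in DMSO, 4593, 4167 and 5147 CPM in JQ1, 6334, 5246 and 5743 CPM in BKM120, and 5843, 5199.5 and 5612 CPM in 18DS. In both rows the JQ1 libraries lie below every BKM120 and 18DS library, and the DMSO libraries overlap all 3 treated groups.

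Against DMSO none of these changes was called. For *IGLC2* the log2 change was -0.09 in JQ1, 0.20 in BKM120 and 0.14 in 18DS (edgeR adjusted p = 0.623, 0.104 and 0.222). For *IGLC3* it was -0.13, 0.19 and 0.13 in the same order (edgeR adjusted p = 0.442, 0.166 and 0.284). The difference of JQ1 from BKM120 was called in both, at -0.29 (SE 0.08, interval -0.45 to -0.13, edgeR adjusted p = 0.0106) for *IGLC2* and -0.32 (SE 0.08, interval -0.49 to -0.15, edgeR adjusted p = 0.0097) for *IGLC3*, or 1.22- and 1.25-fold lower in JQ1. Both calls were lost without replicate 2 of JQ1 (edgeR adjusted p = 0.0760 and 0.0804) or replicate 1 of BKM120 (0.0992 and 0.0775), and that of *IGLC2* also without replicate 1 of JQ1 (0.0532). Between 18DS and JQ1 the log2 differences were 0.23 and 0.26 and were not called (edgeR adjusted p = 0.0928 and 0.0686).

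*IGLC7* was at 93.2, 95.03 and 95.5 CPM in DMSO, 83.9, 79.7 and 78.2 CPM in JQ1, 121, 87.3 and 96.1 CPM in BKM120, and 104, 135 and 101 CPM in 18DS. The JQ1 libraries are below and the 18DS libraries above every DMSO library, and replicate 2 of 18DS and replicate 1 of BKM120 stand above the rest of their groups. It was the only gene of the 8 called between 18DS and JQ1, at a log2 difference of 0.49 (SE 0.11, interval 0.27 to 0.71, edgeR adjusted p = 0.0116). Without replicate 2 or replicate 3 of JQ1 that call was lost, at 0.48 in both cases (edgeR adjusted p = 0.0606 and 0.0654). Against DMSO the log2 change was -0.23 in JQ1, 0.10 in BKM120 and 0.26 in 18DS (edgeR adjusted p = 0.260, 0.623 and 0.0843). JQ1 differed from BKM120 by -0.33 (SE 0.11, edgeR adjusted p = 0.0381), a call lost in 10 of 22 other settings, DESeq2 and limma-voom among them. Of these, 7 left out 1 library (replicate 2 or 3 of DMSO, 1, 2 or 3 of JQ1, or 1 or 3 of BKM120), and without replicate 1 of BKM120 the difference was -0.19 (edgeR adjusted p = 0.315).

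*IGLC1* and *IGLL5* carried the same signal, with counts that differed by at most 2 in every library. *IGLC1* was at 224, 172 and 185 CPM in DMSO, 191, 549.9 and 166 CPM in JQ1, 194, 175 and 175 CPM in BKM120, and 198, 258 and 178 CPM in 18DS. Replicate 2 of JQ1 stands apart from the other 11 libraries, which lie between 166 and 258 CPM. The log2 change in JQ1 against DMSO was 0.64, with an interval of -0.33 to 1.60 (edgeR adjusted p = 0.510), and without that library it was -0.12 (edgeR adjusted p = 0.790). No comparison of *IGLC1* or *IGLL5* was called.

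In replicate 2 of JQ1 the balance between *IGLC3* and *IGLC2* differed as well, while *IGLC7* lay within the range of the other JQ1 libraries. Its raw counts were 3023 for *IGLC1*, 23162 for *IGLC2* and 22908 for *IGLC3*, and it was the only library with fewer counts in *IGLC3* than in *IGLC2*. The ratio of *IGLC1* to *IGLC2* counts was 0.131 there and 0.0320 to 0.0533 in the other 11 libraries. The ratio of *IGLC3* to *IGLC2* was 0.989 there and 1.05 to 1.09 in the others. The ratio of *IGLC1* and *IGLC3* together to *IGLC2* was 1.12 there, within the range of 1.08 to 1.13 of the others. Of the 386 windows of 75 bases in *IGLC1*, only 3 also occur in *IGLC3* and 23 in *IGLC2*. Whether reads were assigned differently between the copies in replicate 2 of JQ1 was not tested.

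**Figure D2:**
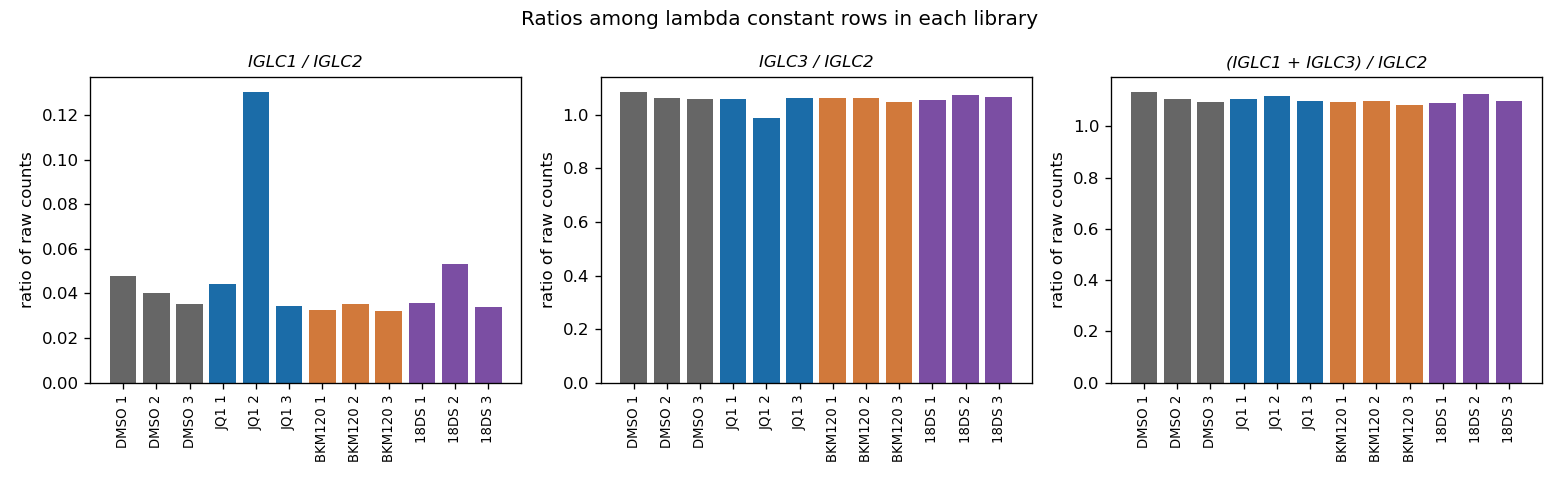
Ratios of raw counts between lambda constant rows in each of the 12 libraries, with bars that start at 0 and are coloured by group. Replicate 2 of JQ1 has the highest *IGLC1* to *IGLC2* ratio (0.131) and the lowest *IGLC3* to *IGLC2* ratio (0.989), and lies within the range of the other libraries when *IGLC1* and *IGLC3* are added.

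Summing *IGLC1*, *IGLC2*, *IGLC3* and *IGLC7* to 1 row removes the split among these copies of reads that were each counted in a single row. A read counted in several of these rows would enter the sum several times, and how such reads were counted is not given. The sum leaves out *IGLL5*, which repeats *IGLC1*. The summed level was 10086, 9082 and 11141 CPM in DMSO, 9196, 9009 and 10223 CPM in JQ1, 12609.7, 10441 and 11485 CPM in BKM120, and 11679, 10438 and 11156 CPM in 18DS. The JQ1 libraries are below every BKM120 and 18DS library, and the DMSO libraries overlap all 3 treated groups. The summed row differed between JQ1 and BKM120 by -0.28 on the log2 scale (SE 0.08, interval -0.44 to -0.13, edgeR adjusted p = 0.00941). Against DMSO it changed by -0.09 in JQ1 (interval -0.25 to 0.06), 0.19 in BKM120 (0.04 to 0.34) and 0.15 in 18DS (-0.01 to 0.30), none of them called (edgeR adjusted p = 0.584, 0.111 and 0.170). Between 18DS and JQ1 the difference was 0.24 (edgeR adjusted p = 0.0607) and was not called. The summed row was not refitted with single libraries left out. *IGLC2* and *IGLC3*, its largest parts, each lost the call between JQ1 and BKM120 without replicate 2 of JQ1 or replicate 1 of BKM120.

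Counted over the 8 genes, 1 fell and 0 rose in JQ1 against DMSO, where 6.08% of all tested genes were called, 3.45% lower and 2.63% higher. In 18DS against DMSO 1 fell and 0 rose, with 21.0% of all genes called, 11.0% lower and 9.96% higher. In both comparisons the gene was *TENT5C*. In BKM120 against DMSO edgeR called 0 of the 8, with 8.21% of all genes called, 4.14% lower and 4.07% higher. DESeq2 and limma-voom also called 0 there, and 4 of the 8 had an unadjusted p under 0.05. Between 18DS and JQ1 1 was called, *IGLC7*, with 4.16% of all genes called and 2.37% higher in 18DS. Between 18DS and BKM120 1 was called, *TENT5C*, with 11.3% of all genes called and 6.67% lower in 18DS. In the departure of 18DS from the sum edgeR, DESeq2 and limma-voom called 0 of the 8, with 1 at an unadjusted p under 0.05 and 0.121% of all genes called by edgeR.

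Between JQ1 and BKM120 5 of the 8 were lower in JQ1, *TENT5C*, *MZB1*, *IGLC2*, *IGLC3* and *IGLC7*, where 7.42% of all genes were called lower and 14.6% in either direction. *IGLC2* and *IGLC3* share part of their sequence and need not be independent. The count was 1 without replicate 2 of JQ1 or without replicate 1 of BKM120, and 3 without replicate 1 or replicate 3 of JQ1. *TENT5C* was called each time. The median log2 difference of the 8 genes was -0.30, against -0.003 for all genes tested. The medians of the 8 against DMSO were -0.10 in JQ1, 0.05 in BKM120 and 0.12 in 18DS. *IGLC1* and *IGLL5* repeat each other and both enter the 8, so these counts and medians do not rest on 8 independent genes.

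**Figure D3:**
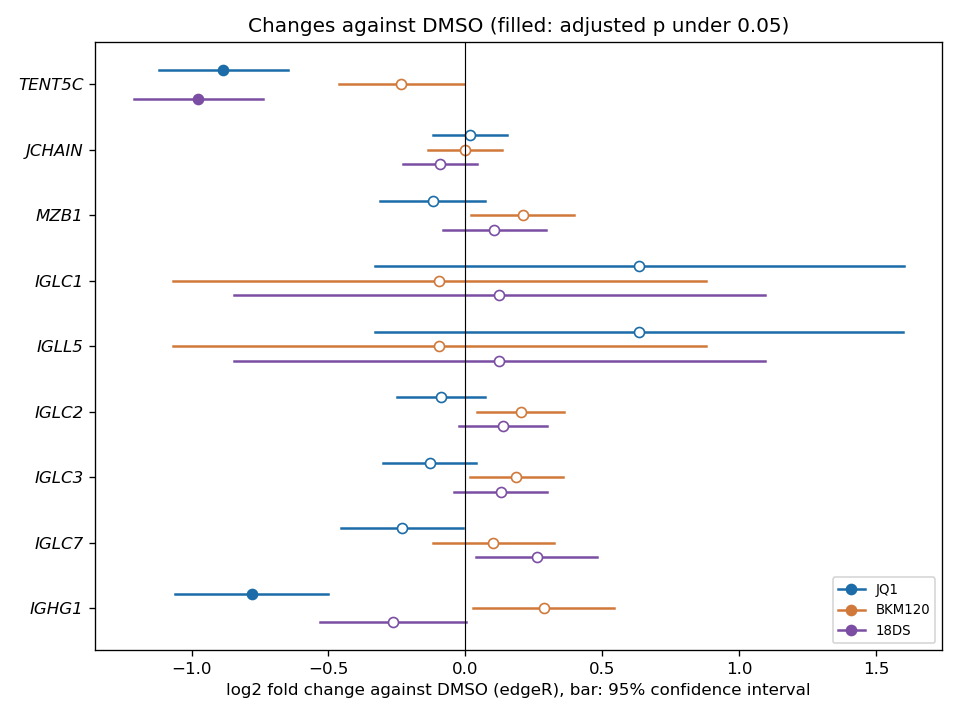
Log2 fold change against DMSO of the 8 genes and *IGHG1* in JQ1, BKM120 and 18DS, from the edgeR fit, with bars for the 95% confidence interval and filled points for an adjusted p under 0.05. The filled points are *TENT5C* in JQ1 (-0.88) and 18DS (-0.98) and *IGHG1* in JQ1 (-0.78), and the *JCHAIN* points lie between -0.09 and 0.02.

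The heavy chain and kappa rows set these light chain levels beside those of the other antibody chains. Of 25 immunoglobulin constant rows 19 had at least 1 count. *IGHG1*, the gamma 1 heavy chain constant gene (ENSG00000211896), held 1955 counts over the 12 libraries, *IGHG3* 371, *IGHG4* 185 and *IGHG2* 121. The alpha heavy chain genes *IGHA2* and *IGHA1* held 36 and 7 counts. The kappa constant gene *IGKC* held 6 counts, and the mu, delta and epsilon heavy chain genes *IGHM*, *IGHD* and *IGHE* held 0. Of 361 variable, diversity and joining segment rows 19 had at least 1 count, led by *IGLJ3* with 2599, *IGLJ2* with 340, *IGLV3-25* with 83 and *IGLV3-16* with 78. 3' counting covers the constant end of a transcript, so low segment counts are no measure of which variable gene was used.

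*IGHG1* fell in JQ1 and was not called in the other groups against DMSO. Its libraries were at 25.04, 28.3 and 32.5 CPM in DMSO, 15.8, 18.7 and 15.5 CPM in JQ1, 35.7, 31.7 and 37.2 CPM in BKM120, and 25.7, 26.2 and 19.6 CPM in 18DS. The JQ1 libraries lie below all the others, and the 18DS libraries lie between those of JQ1 and BKM120. The log2 change in JQ1 was -0.78 (SE 0.14, interval -1.06 to -0.50, edgeR adjusted p = 0.000172), 1.72-fold lower, and was called under every other setting tried.

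In BKM120 the log2 change of *IGHG1* was 0.29 (edgeR adjusted p = 0.159) and in 18DS -0.26 (interval -0.53 to 0.003, edgeR adjusted p = 0.155). 18DS was higher than JQ1 by 0.52 (SE 0.14, edgeR adjusted p = 0.0303), a call lost in 6 of the other settings, limma-voom among them (limma-voom adjusted p = 0.0528). The other losses came without replicate 1, 2 or 3 of JQ1 or replicate 1 or 2 of 18DS, with adjusted p of 0.0887, 0.0567, 0.143, 0.0604 and 0.111 in that order. 18DS was lower than BKM120 (log2 difference -0.55, SE 0.13, edgeR adjusted p = 0.00326), and without replicate 3 of 18DS that adjusted p was 0.0548. JQ1 was lower than BKM120 (-1.07, SE 0.14, edgeR adjusted p = 4.18e-07).

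The other gamma rows were low. *IGHG4* was at 2.34 ± 1.20 CPM in DMSO, 0.913 ± 0.315 in JQ1, 2.64 ± 1.20 in BKM120 and 4.02 ± 1.54 in 18DS (SD, n = 3). It was higher in 18DS than in JQ1 (log2 difference 2.12, SE 0.45, edgeR adjusted p = 0.00679) and lower in JQ1 than in BKM120 (-1.54, SE 0.48, edgeR adjusted p = 0.0261). *IGHG3* was lower in JQ1 than in BKM120 (-1.21, SE 0.33, edgeR adjusted p = 0.011). The *IGHG4* call against BKM120 was lost with limma-voom (adjusted p = 0.0629) and without replicate 1 or 3 of JQ1 or replicate 1 of BKM120 (edgeR adjusted p = 0.0900, 0.116 and 0.218). The *IGHG3* call was lost without replicate 2 of JQ1 or replicate 1 of BKM120 (edgeR adjusted p = 0.0532 and 0.0900), and the *IGHG4* call of 18DS against JQ1 without replicate 3 of JQ1 (0.0556). The gamma constant genes are similar in sequence, so reads of *IGHG1* could be counted in part in these rows.

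**Figure D4:**
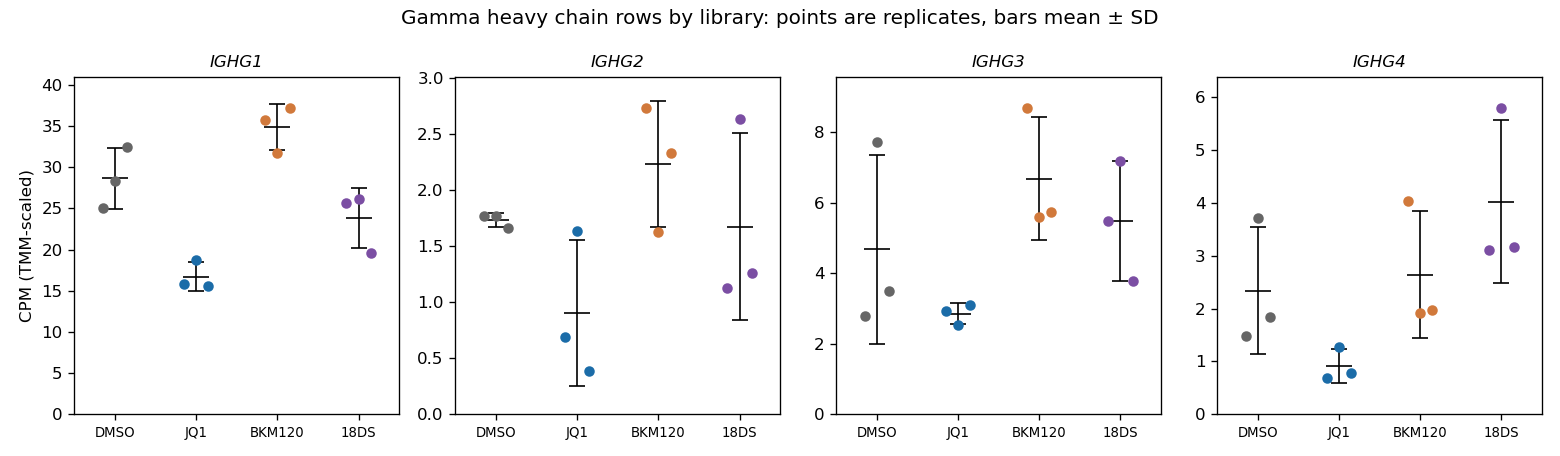
Level of the 4 gamma heavy chain constant genes in every library, in TMM-scaled CPM on axes that start at 0 and differ between panels, with points for replicates and bars for the mean ± SD. *IGHG1* is lowest in the JQ1 libraries, at 15.5 to 18.7 CPM, and *IGHG2*, *IGHG3* and *IGHG4* stay below 9 CPM in all groups.

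Of 16 listed immunoglobulin constant genes, 9 passed the filter, 5 of them among the 8 genes above. Against DMSO 0 rose and 1 fell in JQ1 (*IGHG1*), and 0 of 9 were called in BKM120 or 18DS by edgeR, DESeq2 or limma-voom, with 3 and 1 at an unadjusted p under 0.05. Of all genes tested, edgeR called 6.08% in JQ1, 8.21% in BKM120 and 21.0% in 18DS. The list's median log2 change was -0.23 in JQ1, 0.19 in BKM120 and 0.13 in 18DS, against all-gene medians within 0.004 of 0. Between JQ1 and BKM120 6 of the 9 were lower in JQ1, where 7.42% of all genes were, and between 18DS and JQ1 3 were higher in 18DS, where 2.37% of all genes were. The 9 are not independent, as copies can share reads and *IGLC1* and *IGLL5* repeat each other. Of the 6 calls only that of *IGHG1* held in every fit with a library left out. Each of the 3 calls between 18DS and JQ1 was lost in some such fit.

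Transcription factors that govern immunoglobulin genes moved in both directions. Of 23 listed, 17 were tested, and 3 rose and 3 fell in JQ1, 2 rose and 3 fell in BKM120, and 2 rose and 7 fell in 18DS. Of all genes tested, 2.63% rose and 3.45% fell in JQ1, 4.07% and 4.14% in BKM120, and 9.96% and 11.0% in 18DS. *IRF4*, a factor that plasma cells need, was at 303 CPM in DMSO, 196 in JQ1, 234 in BKM120 and 190 in 18DS on average, and fell by 0.63 in JQ1, 0.38 in BKM120 and 0.67 in 18DS on the log2 scale (edgeR adjusted p = 8.42e-08, 0.000668 and 9.07e-09). *PRDM1*, which drives plasma cell differentiation, fell by 0.41 in JQ1 (edgeR adjusted p = 0.00106), and *XBP1*, which drives the secretory programme, fell by 0.53 in 18DS (edgeR adjusted p = 5.36e-06). In DMSO, JQ1, BKM120 and 18DS, *PRDM1* averaged 102, 76.9, 106 and 77.5 CPM and *XBP1* 803, 657, 726 and 554 CPM. *ID3*, an inhibitor of E-protein transcription factors, rose by 1.33 in JQ1 (edgeR adjusted p = 4.35e-05), and averaged 4.55, 11.5, 5.38 and 11.7 CPM in the same order. In BKM120, *ID2*, of the same family, fell by 0.73 (edgeR adjusted p = 7.67e-05) and *MEF2C* rose by 0.37 (edgeR adjusted p = 0.00126). *BCL6*, a transcriptional repressor active in germinal centre B cells, was at 0.901 CPM in DMSO and 6.67 CPM in 18DS (log2 change 2.86, edgeR adjusted p = 3.85e-07). Its DMSO libraries held 17 counts together, and its means were 3.31 CPM in JQ1 and 2.70 CPM in BKM120. The list's median log2 change was -0.12 in JQ1, 0.02 in BKM120 and -0.12 in 18DS.

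Genes of antibody folding and secretion were mostly not called in JQ1 and BKM120. That also held for all genes tested, of which 6.08% and 8.21% were called. All 44 listed were tested, and 2 rose and 0 fell in JQ1, 2 rose and 2 fell in BKM120, and 9 rose and 1 fell in 18DS, where 9.96% of all genes rose and 11.0% fell. In JQ1 2.63% of all genes rose, and in BKM120 4.07% rose and 4.14% fell. DESeq2 and limma-voom also had 0 falling in JQ1, with 2 lower at an unadjusted p under 0.05. *HERPUD1*, which takes part in degrading misfolded proteins, rose by 0.38 in JQ1 and 0.42 in 18DS (edgeR adjusted p = 0.00382 and 0.000499), and *HSPA5*, the chaperone BiP, rose by 0.23 in JQ1 (edgeR adjusted p = 0.0338). The *HSPA5* call was lost in 7 of 24 other settings, among them the fits without any 1 of the 3 DMSO libraries or without replicate 2 or 3 of JQ1, with adjusted p up to 0.230. *CALR*, a chaperone of glycoproteins, rose by 0.46 in 18DS (edgeR adjusted p = 0.000286), and *SEL1L*, part of the degradation complex, fell by 0.40 (edgeR adjusted p = 0.00121). In BKM120 *PDIA3*, a disulfide isomerase, rose by 0.32 and *SEC11C*, a signal peptidase subunit, fell by 0.42 (edgeR adjusted p = 0.0169 and 0.0224). Both calls were lost without replicate 1 of DMSO or replicate 1 or 3 of BKM120, with adjusted p up to 0.129 and 0.112, and that of *SEC11C* also with the replicate block (0.0537). The list's median log2 change was 0.01 in JQ1, -0.04 in BKM120 and -0.01 in 18DS.

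TENT5C belongs to the enzymes that add nucleotides to RNA 3' ends. Of 15 such enzymes and TENT5 partners 13 were tested, *TENT5B* and *TENT5D* not being among them, and 1 rose and 2 fell in JQ1, 2 rose and 1 fell in BKM120, and 1 rose and 2 fell in 18DS, *TENT5C* included, beside the all-gene shares given above. *TENT5A*, the other tested gene of the TENT5 family, averaged 1.67 to 1.97 CPM by group and was not called. *TENT4B*, a poly(A) polymerase of nuclear and cytoplasmic RNA, rose by 0.76 in JQ1 and 0.89 in 18DS (edgeR adjusted p = 3.89e-06 and 7.86e-08). *MTPAP*, the mitochondrial poly(A) polymerase, fell by 0.73 in JQ1, 0.43 in BKM120 and 1.22 in 18DS (edgeR adjusted p = 1.77e-05, 0.0102 and 5.34e-10). The uridylase gene *TUT7* rose by 0.48 in BKM120 (edgeR adjusted p = 0.0088). Without replicate 1 or 3 of BKM120 the calls of *TUT7* (edgeR adjusted p = 0.0512 and 0.0714) and of *MTPAP* in BKM120 (0.0505 and 0.0929) were lost. For *TUT4*, the other uridylase gene, the log2 change in BKM120 was 0.50 (edgeR adjusted p = 0.048), and the call was lost in 14 of 24 other settings, with adjusted p up to 0.150. These settings were library totals, DESeq2, no expression filter, the replicate block and the fits without any 1 of the DMSO, JQ1 or BKM120 libraries or without replicate 3 of 18DS. The list's median log2 change was 0.004 in JQ1, 0.21 in BKM120 and 0.02 in 18DS.

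Of the 20 deadenylases, their adaptors and poly(A) binding proteins, all tested, 1 rose and 1 fell in JQ1, 5 rose and 1 fell in BKM120, and 4 rose and 4 fell in 18DS, beside the same all-gene shares. *TOB1*, an adaptor of the deadenylase complex, rose by 0.97 in JQ1 and 1.15 in 18DS (edgeR adjusted p = 0.00279 and 0.000119), and *CNOT6L*, a catalytic subunit of it, fell by 0.52 and 0.63 (edgeR adjusted p = 0.00175 and 6.29e-05). *BTG1*, which is related to *TOB1*, rose by 0.95 in BKM120 (edgeR adjusted p = 4.12e-11). *PABPC4*, a poly(A) binding protein gene, rose by 0.42 in 18DS (edgeR adjusted p = 0.000266). The list's median log2 change was -0.01 in JQ1, 0.04 in BKM120 and 0.05 in 18DS.

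**Figure D5:**
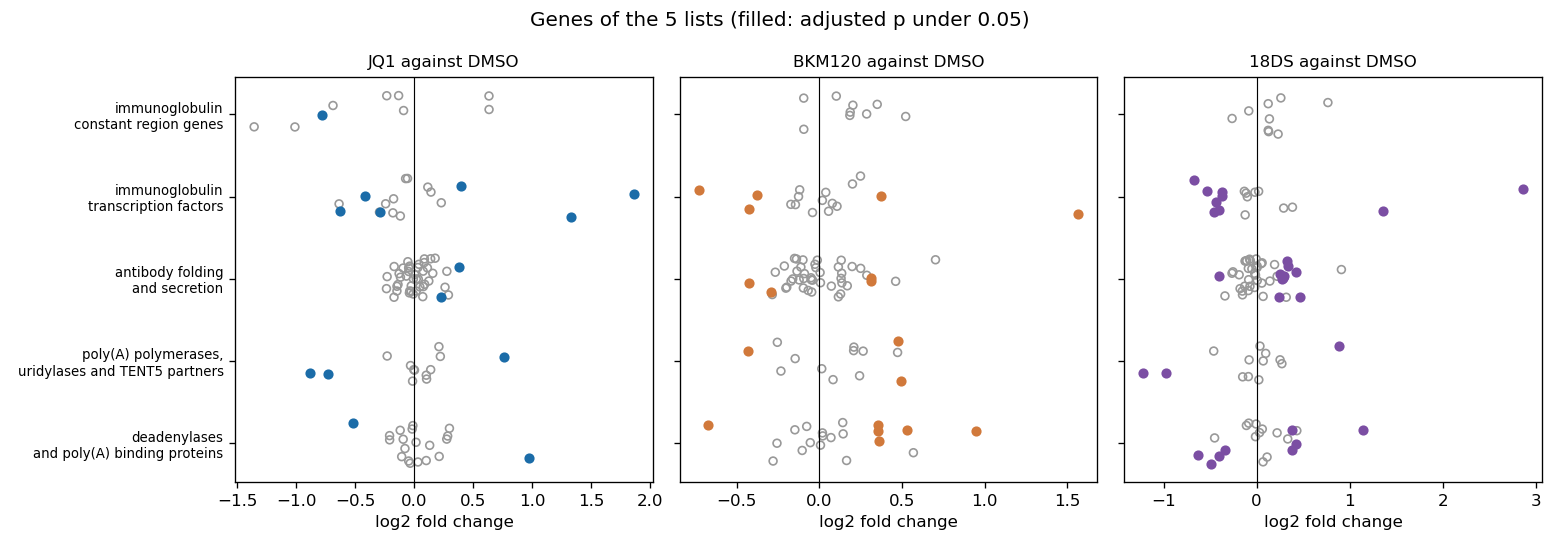
Log2 fold change against DMSO of each tested gene of the 5 lists, 1 panel per compound with its own horizontal scale, filled where the adjusted p was under 0.05. Most genes of antibody folding and secretion lie near 0, with 9 filled points above and 1 below in 18DS, and the points farthest left in the list of poly(A) polymerases are *TENT5C* (-0.88) in JQ1 and *MTPAP* (-1.22) in 18DS.

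Across the 12 libraries, the genes whose levels followed each of the 8 most closely were found by Pearson's r of log2(CPM + 1) over the 9857 tested genes that averaged 5 CPM or more. For *TENT5C* they were *DBF4* (r = 0.957), *NOP16* (0.947) and *ZNF22* (0.944). For *JCHAIN* they were *SUB1* (0.948), *PRDX3* (0.904) and *IGFBPL1* (0.901), and for *MZB1* *KIF22* (0.954), *DPY19L1P1* (0.927) and *ALKBH2* (0.911). *IGLC2* and *IGLC3* followed each other (0.983), and *IGLC7* followed *KCNN3* (0.900). The points share libraries, depth and 4 group means, and the values are descriptions without a test.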

How the data were processed

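OPM2 cells were profiled by QuantSeq 3' mRNA sequencing with 75-base single-end reads, 3 libraries each for DMSO, JQ1, BKM120 and 18DS. The authors deposited raw counts per Ensembl gene as whole numbers. The submitters' processing notes name HISAT2 2.1.0 and hg19, featureCounts and Subread, bcl2fastq 2.17.1.14, limma, SAMtools 1.9, cutadapt 1.7 and FastQC 0.11.5, without their order. The sources used here do not give the annotation release, strand setting or treatment of multi-mapping reads. Symbols were matched for 51662 of 63152 identifiers, and the 11490 without one held 5.54% of counts. No hg19 annotation was used here, so gene sequences came from GENCODE v29 on GRCh38.

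The main test was that of edgeR 4.0.16 under R 4.3.3, with DESeq2 1.42.0 and limma 3.58.1 (voom) as other tools. filterByExpr (minimum count 10, minimum total 15) kept 13180 genes. Library sizes were the totals of these genes. TMM factors ran from 0.971 to 1.033. A single robust quasi-likelihood fit over the 12 libraries (residual degrees of freedom 8) gave 7 comparisons: each group against each other one, and 18DS minus JQ1 minus BKM120 plus DMSO on the log2 scale. Calls used a Benjamini-Hochberg adjusted p under 0.05. SEs and 95% intervals come from the fit and cover the spread between libraries, not errors of read assignment. On simulated data with 200 changed genes in JQ1 against DMSO (12968 genes), the test found 44.8% of the 1.5-fold changes, 68.7% at 2-fold and 97.0% at 4-fold, and 6.67% of calls were false.

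The 8 genes and the gene lists were chosen with earlier results of these data known. Named list genes are, per compound against DMSO, up to 3 called members with the smallest adjusted p. A gene named for a compound may therefore also have changed with another. Genes of like pattern are the 3 with the highest correlation. Pearson chi-square per degree of freedom between replicates of a group was 1.87 to 7.97, so no pair differed by less than sampling noise. It was 7.97 and 5.54 for replicate 2 of 18DS with replicates 1 and 3, and 2.74 between replicates 1 and 3. The largest value in the other groups was 4.97, between replicates 2 and 3 of BKM120. Python 3.11.15 with matplotlib 3.10.9 drew the figures. The alternatives were 4 scalings, 2 other tests, 2 filters, the compared groups alone, a replicate block, the lambda rows summed with or without *IGLL5* (the latter chosen after seeing the data), and each library left out in turn.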

Additional observations from a re-analysis of the deposited data

How the results depend on the processing

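Over 56 results for the 8 genes in 7 comparisons there were 1266 pairs of a result and an alternative setting. The call changed in 34 of them, 20 lost and 14 gained, and 0 called values changed sign. An uncalled value changed sign in 42. Library scaling moved the median of all genes by at most 0.1 on the log2 scale. With upper-quartile factors 1 of the 8 genes was called in BKM120 against DMSO (*IGLC2*, 0.25, adjusted p = 0.0382). Between 18DS and JQ1 the count of called genes was 1 by the fit reported, 2 with upper-quartile factors, 3 without an expression filter, 2 with the 2 groups alone, 2 with the replicate block and 0 with 5 or 4 lambda rows summed. Between JQ1 and BKM120 it was 3 with either sum, which leaves fewer rows. Leaving out 1 library at a time gave 0 to 1 called genes in BKM120 against DMSO, 1 to 2 in 18DS against DMSO, 0 to 2 between 18DS and JQ1 and 1 to 5 between JQ1 and BKM120.

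The JQ1 against BKM120 call of *IGLC7* was also lost with DESeq2 (adjusted p = 0.0565), limma-voom (0.0569) and the replicate block (0.0504). The replicate block added *IGLC3* between 18DS and JQ1 (adjusted p = 0.0242). No pairing of libraries by replicate number was seen. Deviations from the group means of same-numbered libraries correlated between -0.259 and 0.192, and 3 of 12 libraries correlated best with their own number. With 3 libraries per group a small effect shared by number could be missed. Genes called over the whole table ranged, over the alternatives, from 504 to 1101 around 801 in JQ1 against DMSO, 482 to 1564 around 1082 in BKM120 against DMSO, 105 to 1027 around 548 between 18DS and JQ1, 1156 to 2316 around 1925 between JQ1 and BKM120, and 3 to 45 around 16 for the departure, which was not run with the compared groups alone. List counts also moved. In JQ1 the folding and secretion list had 1 to 2 rising and 0 to 1 falling. In BKM120 it had 0 to 3 rising and 0 to 3 falling, the constant genes 0 to 1 rising, the transcription factors 1 to 2 rising, the poly(A) polymerases 0 to 3 rising and 0 to 1 falling, and the deadenylases 3 to 5 rising and 1 to 2 falling. In 18DS the folding and secretion list had 1 to 6 falling, the constant genes 0 to 1 rising and the transcription factors 3 to 7 falling.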

Other observations

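*IGLJ2*, a lambda joining segment next to *IGLC2*, had 0 counts in 3 libraries, replicate 3 of DMSO, replicate 1 of JQ1 and replicate 3 of BKM120, and 14 to 57 counts in the other 9. *IGLJ3* was at 21.2 to 46.0 CPM in the 12 libraries. *IGLC6*, a lambda constant row outside the 8 genes that was named after its values were seen, held 16900 counts. Its group means were 203 ± 4.65 CPM in DMSO, 195 ± 36.8 in JQ1, 232 ± 26.9 in BKM120 and 262 ± 56.1 in 18DS (SD, n = 3), and it was not called in any comparison.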
